A study of Mus musculus with 9 samples.

Results

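The carbonic anhydrases of the mouse colon were followed by 10 genes chosen by symbol, Car1, Car2, Car3, Car4, Car5b, Car8, Car9, Car12, Car13 and Car14, out of 54491 genes in the table. All 10 passed the filter on low values, a level of 0.5 FPKM or more in 3 or more libraries, as did 17907 genes in all. FPKM values are fragment numbers corrected for transcript length and library size, so genes can be compared within a library. Their sum was not equal between libraries, at 348700 to 454500, so differences between libraries depend in part on the scaling. The 3 libraries of the high-fat diet alone, described below, had the lowest sums, at 348700 to 352300, and all others had 371300 or more. Colon RNA of C57BL/6 mice at postnatal day 98 was sequenced in 9 libraries. A start age of 6 weeks is given for the mice of all groups. The control group had 3 libraries (replicates 1, 2 and 3), from mice whose diet the labels do not describe. The high-fat diet group (HFD) had 3 (replicates 1, 2 and 4). The third group, also 3 (replicates 1, 3 and 4), received the high-fat diet with gavage of the bacterium Papillibacter cinnamivorans and is called HFD with the bacterium here. Gavage, dosing by a tube into the stomach, is named for that group only, so the bacterium and the procedure cannot be told apart. All groups were of the same strain and age, and no allele or transgene is named. The labels give 15 mice per group at the start but do not tie a library to a mouse, so p-values measure the spread between libraries, which may be technical. The stretch of colon taken is not given.

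Carbonic anhydrases catalyse the interconversion of carbon dioxide and bicarbonate with release of a proton. In the colon they supply bicarbonate and protons to the exchangers that absorb sodium chloride and short-chain fatty acids and set the pH at the mucosal surface. The family is divided by where the enzyme sits: Car1, Car2, Car3 and Car13 are cytosolic, Car4 is tethered to the outer membrane by a lipid anchor, Car9, Car12 and Car14 span the membrane with the catalytic domain outside, and Car5b is mitochondrial. Car8 is a related protein without catalytic activity that binds the inositol trisphosphate receptor. Car13, Car1, Car3 and Car2 are consecutive protein-coding genes on chromosome 3.

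The whole-tissue libraries held 14848249 to 17350899 fragments in genes, as recovered from the FPKM values up to a common factor per gene. Their relative depth, read from the same values, differed by at most 1.34-fold. Epithelial RNA was present in every library, with a summed FPKM of 10 pan-epithelial genes of 4800 to 9380. Control replicate 1 stood apart from the other control libraries: its 8 smooth muscle genes summed to 6866 FPKM against 1328 to 1872. The 3 HFD libraries stood apart in positional genes. Their 12 posterior Hox genes summed to 281 to 301 FPKM, against 12.2 to 71.9 in control and 27 to 34.6 in HFD with the bacterium, and their 7 genes Hoxb2 to Hoxb8 summed to 4.64 to 5.51 FPKM, against 25.6 to 131 and 62.8 to 100. Hoxb13 and Hoxd13, at means of 127 and 84.3 FPKM in HFD, gave most of the posterior sum. Of 8 posterior Hox genes tested, 5 were called higher in HFD than control and none lower. Hoxa11 went the other way without passing, at 1.81 FPKM in HFD against 5.93 in control and 3.44 in HFD with the bacterium. In HFD the 7 mature B cell genes summed to 68.7 to 81 FPKM, against 1.52 to 9.15 in control and 4.13 to 6.95 in HFD with the bacterium. The 9 enteric neuron and glia genes summed to 24.7 to 29.3 FPKM in HFD, against 38.8 to 101 and 47.1 to 93.9. The part of these differences in the results below was not tested. The sums of the Hox, B cell, and enteric neuron and glia genes separate HFD from both other groups. Position along the colon and the mix of cells in the pieces therefore cannot be told apart from diet when HFD is compared with control. Nor can they be told apart from the bacterium and its gavage when HFD with the bacterium is compared with HFD.

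The promoters of 3 genes are printed, those of a membrane enzyme that differed between groups (Car12) and of 2 that did not pass the test in either comparison with HFD (Car9, Car4). Each is the 250 bases upstream of the start site, 5′ to 3′ on the gene's strand, from RefSeq on the GRCm38.p6 build, which held an entry for 5 of the 10 genes. The files use another build, so these positions apply to GRCm38.p6 alone. Capitals mark the core of the hypoxia response element, ACGTG, or its reverse complement CACGT.
Car12 (chr9:66713436-66713685, plus strand): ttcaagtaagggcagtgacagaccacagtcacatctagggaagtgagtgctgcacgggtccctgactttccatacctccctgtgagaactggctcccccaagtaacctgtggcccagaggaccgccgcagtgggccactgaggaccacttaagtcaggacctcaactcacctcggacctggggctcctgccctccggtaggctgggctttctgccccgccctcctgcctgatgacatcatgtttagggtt
Car9 (chr4:43506776-43507025, plus strand): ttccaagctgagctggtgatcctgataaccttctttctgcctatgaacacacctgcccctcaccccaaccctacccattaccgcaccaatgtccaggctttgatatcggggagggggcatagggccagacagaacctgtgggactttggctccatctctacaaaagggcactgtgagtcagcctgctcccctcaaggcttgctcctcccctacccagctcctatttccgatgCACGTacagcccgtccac
Car4 (chr11:84957504-84957753, plus strand): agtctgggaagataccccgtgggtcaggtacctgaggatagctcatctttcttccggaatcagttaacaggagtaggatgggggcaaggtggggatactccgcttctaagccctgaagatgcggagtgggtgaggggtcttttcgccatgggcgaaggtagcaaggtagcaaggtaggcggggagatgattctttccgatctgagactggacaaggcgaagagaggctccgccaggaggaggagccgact
Both strands were searched for 4 motifs. The hypoxia core ACGTG lay in the Car9 window at -18 to -14 and in that of Car14 at -7 to -3, counted from the start site and on the minus strand relative to the gene in both. It was found in 16.6% of 32851 promoter windows of the same length. None of the 5 windows held the CDX core TTTATG (10.8% of all windows), the HNF4A motif CAAAGTCCA (0.384%) or the TATA box TATAAA (12.4%). A match is a description of the letters and not evidence of binding.

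In HFD colon 3 of the 10 genes fell and none rose, at an adjusted p below 0.05 (limma, Benjamini-Hochberg over all tested genes). The 3 were Car1, Car8 and Car12. Over all tested genes 9.11% were called lower and 10.6% higher. When HFD with the bacterium was compared with HFD, the same 3 genes were called higher and none lower, where 4.54% of all tested genes were higher and 7.6% lower. Between HFD with the bacterium and control no member was called in either direction, where 0.262% of tested genes were higher and 0.843% lower. The first 2 comparisons share the HFD libraries, so their opposite signs are not independent. In the whole tissue, fewer cells of a type and less RNA per cell cannot be told apart.

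**Figure D1:**
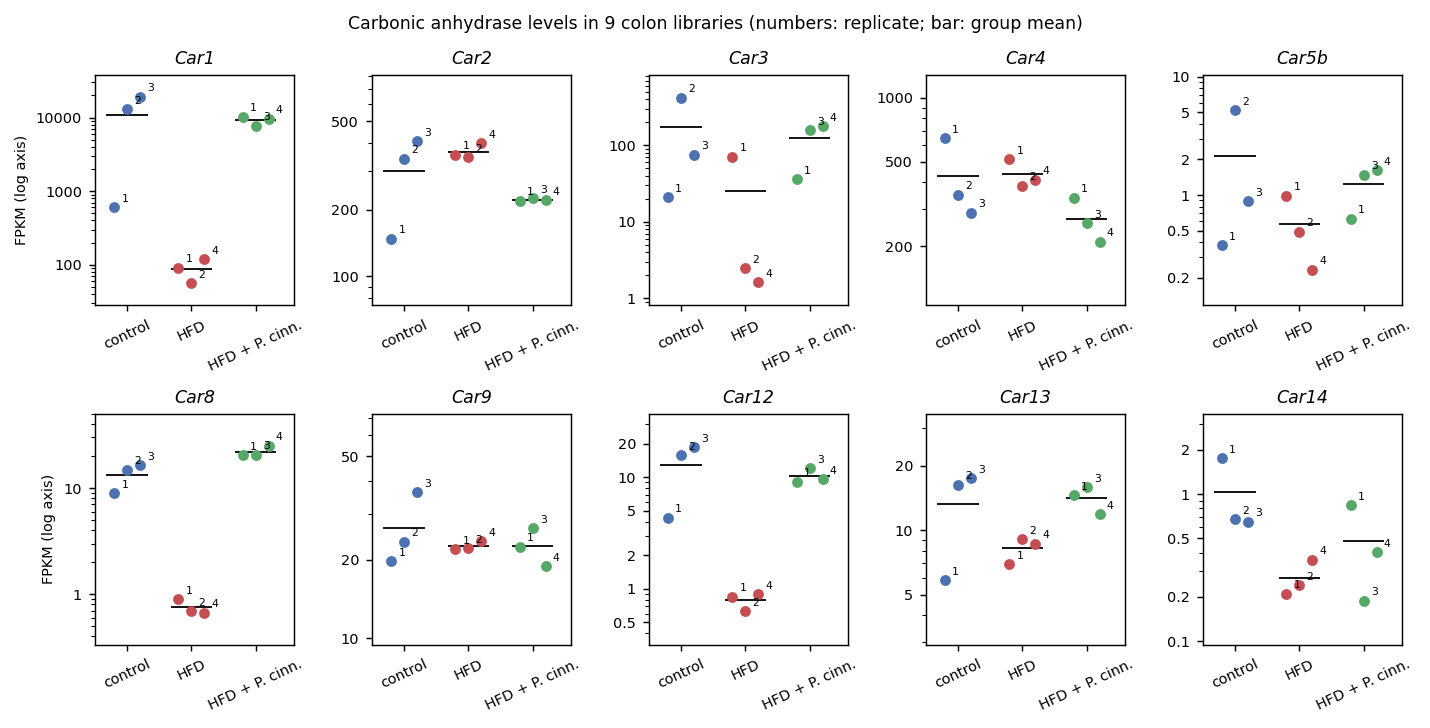
FPKM (log axis, one scale per gene) of the 10 carbonic anhydrases in the 9 libraries; points are libraries numbered by replicate and bars are group means. Car1, Car8 and Car12 are lower in all 3 HFD libraries than in all 6 others, while Car9 stays between 18.9 and 36.3 FPKM.

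Car1, a cytosolic enzyme abundant in colon epithelium and in red blood cells, had the largest values and the largest fold difference. It reached 603, 13019 and 19172 FPKM in control replicates 1, 2 and 3, and 91.5, 56 and 118 FPKM in HFD replicates 1, 2 and 4. In HFD with the bacterium it stood at 10201, 7726 and 9674 FPKM in replicates 1, 3 and 4. The HFD libraries lay below all 6 others, and control replicate 1 lay between them and the rest. The means were 10932 ± 9459, 88.4 ± 31 and 9200 ± 1303 FPKM (SD, n = 3 each), a ratio of control to HFD of 124. On the log2(FPKM + 1) scale, on which every difference below is given, HFD was lower than control by a difference of -5.96 (SE 1.10, limma adjusted p = 0.007), and HFD with the bacterium was higher than HFD by 6.74 (SE 1.10, adjusted p = 0.005). Between HFD with the bacterium and control the difference was 0.78, with a 95% interval of -1.72 to 3.28 (adjusted p = 0.76), which spans ratios of FPKM + 1 from 0.303 to 9.73. The sign is that of the mean log values, while the mean FPKM was higher in control. Without control replicate 1, HFD minus control was -7.53 (SE 0.34, adjusted p = 9.1e-06), without replicate 2 it was -5.31 (adjusted p = 0.027) and without replicate 3 -5.04 (adjusted p = 0.02). Without control replicate 1, HFD with the bacterium minus control turned to -0.79 (adjusted p = 0.18).

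Because Car1 is known from red blood cells, erythrocyte genes were read beside it. The 7 erythrocyte genes found summed to 57.8 to 115 FPKM in control, 19.2 to 51.2 in HFD and 21.7 to 61.4 in HFD with the bacterium. None of the 4 tested passed in any comparison, and Hba-a1, an alpha globin, ranged from 7.31 to 44.3 FPKM. Between HFD and control the sums did not overlap and were lower in HFD, as was Car1, and between HFD and HFD with the bacterium they overlapped. The part of red blood cells in the Car1 values was not tested.

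Car8, the member without catalytic activity, was separated between all groups. Control replicates 1, 2 and 3 had 8.88, 14.9 and 16.4 FPKM, and HFD replicates 1, 2 and 4 had 0.9, 0.695 and 0.667 FPKM. HFD with the bacterium had 20.4, 20.6 and 25 FPKM in replicates 1, 3 and 4. The groups did not overlap, with HFD lowest and HFD with the bacterium highest. The HFD values rest on 45 to 65 fragments per library. The means were 13.4 ± 3.97, 0.754 ± 0.127 and 22 ± 2.6 FPKM (SD, n = 3 each). HFD minus control was -3.00 (SE 0.21, limma adjusted p = 6.8e-05), and HFD with the bacterium minus HFD was 3.71 (SE 0.21, adjusted p = 2.6e-05). Against control, HFD with the bacterium differed by 0.71 (95% interval 0.24 to 1.18), which did not pass after adjustment (adjusted p = 0.11).

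Car12, a transmembrane enzyme of the basolateral side of epithelia, had 4.35, 15.8 and 18.5 FPKM in control replicates 1, 2 and 3 and 0.849, 0.631 and 0.895 FPKM in HFD replicates 1, 2 and 4. In HFD with the bacterium it had 9.12, 12 and 9.6 FPKM. The HFD libraries were again below all others, and control replicate 1 was the lowest of the other 6. HFD minus control was -2.75 (SE 0.42, limma adjusted p = 0.0027), and HFD with the bacterium minus HFD was 2.64 (SE 0.42, adjusted p = 0.0042). HFD with the bacterium minus control was -0.11 (95% interval -1.06 to 0.84, adjusted p = 0.92). Without control replicate 1 this last difference was -0.70 and passed (adjusted p = 0.035), and HFD minus control was -3.34 (adjusted p = 7.9e-06).

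**Figure D2:**
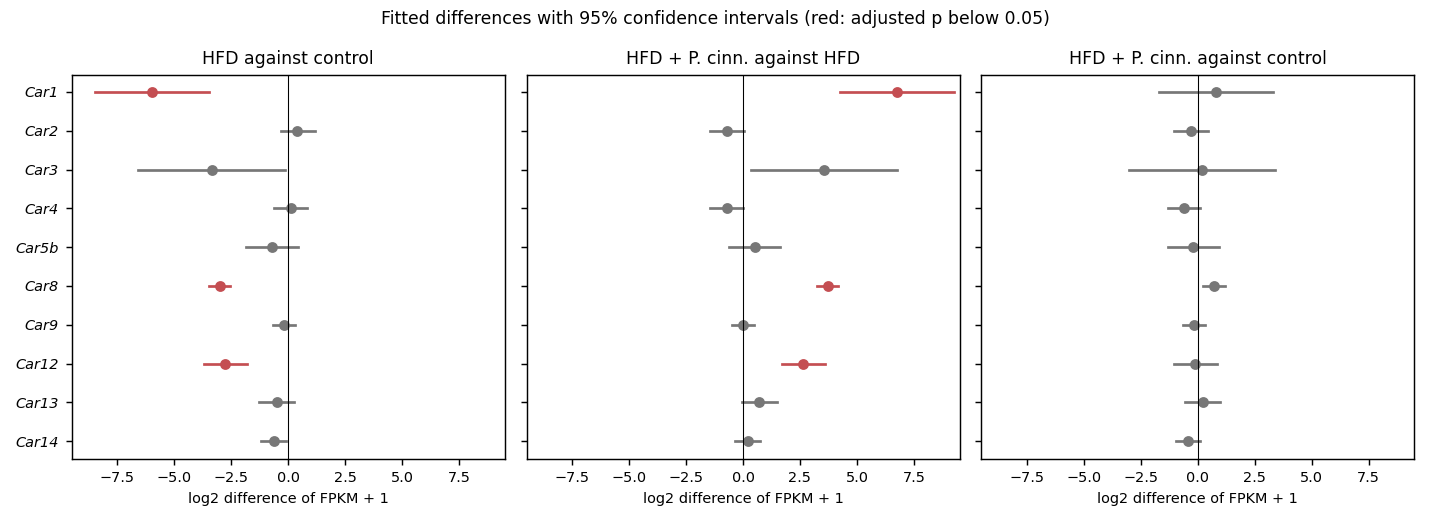
Fitted log2 differences of FPKM + 1 for the 10 genes in the 3 comparisons, with 95% confidence intervals; red marks an adjusted p below 0.05. Car1, Car8 and Car12 are red on the lower side in the first panel and on the higher side in the second, and no gene is red in the third.

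Car2 and Car4, the high-activity cytosolic enzyme and the lipid-anchored enzyme of the apical surface, did not follow Car1. Car2 had 148, 340 and 407 FPKM in control replicates 1, 2 and 3, 354, 344 and 400 FPKM in HFD replicates 1, 2 and 4, and 220, 225 and 221 FPKM in HFD with the bacterium. HFD and control overlapped, and HFD with the bacterium lay below HFD in every library. The difference of HFD from control was 0.41 (95% interval -0.33 to 1.16, limma adjusted p = 0.41), and HFD with the bacterium minus HFD was -0.71 (interval -1.46 to 0.03, adjusted p = 0.2). A fall of the size seen for Car1 lies outside the first interval.

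Car4 had 644, 349 and 288 FPKM in control replicates 1, 2 and 3, 514, 386 and 412 FPKM in HFD replicates 1, 2 and 4, and 338, 257 and 210 FPKM in HFD with the bacterium. Control replicate 1 was the highest of all libraries for Car4 and Car14, and the lowest control library for every other member. HFD differed from control by 0.11 (95% interval -0.60 to 0.82, limma adjusted p = 0.83), and HFD with the bacterium minus HFD was -0.72 (interval -1.43 to -0.01, adjusted p = 0.18), with no overlap between the groups. Without control replicate 1, whose spread enters the shared error, the same differences between HFD with the bacterium and HFD passed for Car2 (-0.71, adjusted p = 0.0057) and for Car4 (-0.72, adjusted p = 0.042). With each library scaled to pan-epithelial genes, HFD minus control of Car2 was 1.10 (adjusted p = 0.0046), but that scaling moved the median of all tested genes to 0.49 and called 42.1% of them higher.

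Car13, a cytosolic enzyme with its gene next to Car1, had 5.83, 16.3 and 17.5 FPKM in control replicates 1, 2 and 3, 6.93, 9.09 and 8.64 FPKM in HFD replicates 1, 2 and 4, and 14.6, 15.9 and 11.9 FPKM in HFD with the bacterium. Control replicate 1 was its lowest library, and HFD lay below HFD with the bacterium without overlap. HFD minus control was -0.50 (SE 0.34, limma adjusted p = 0.33) and HFD with the bacterium minus HFD was 0.71 (SE 0.34, adjusted p = 0.22). Without control replicate 1 both passed, at -0.96 (adjusted p = 0.0034) and 0.71 (adjusted p = 0.0095). Of the 4 neighbours on chromosome 3, Car1 was called in HFD against control, and Car13, Car3 and Car2 were not.

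Car9, an enzyme induced by low oxygen through the factor HIF1, had the smallest spread of the 10, a 1.92-fold range over the 9 libraries. It had 19.8, 23.5 and 36.3 FPKM in control replicates 1, 2 and 3, 22, 22.2 and 23.6 FPKM in HFD replicates 1, 2 and 4, and 22.5, 26.4 and 18.9 FPKM in HFD with the bacterium. HFD minus control was -0.18 (95% interval -0.66 to 0.31, limma adjusted p = 0.59), and HFD with the bacterium minus HFD was -0.01 (interval -0.49 to 0.47, adjusted p = 0.98). The sign of the first difference turned with TPM scaling, without mitochondrial and immunoglobulin genes and with libraries scaled to pan-epithelial genes, where it was 0.49 (adjusted p = 0.029). That value equals the median of all tested genes under the same scaling, 0.49, with 42.1% of tested genes called higher, so relative to the median gene Car9 was not higher. Of 13 other hypoxia targets tested, 2 were called higher and 2 lower in HFD, with a median difference of -0.17 against -0.00 over all tested genes, and 2 were higher and 2 lower when HFD with the bacterium was compared with HFD (median 0.11 against -0.01). Ndrg1, a stress-response gene, fell in HFD from 54.1 ± 15.6 to 10.3 ± 1.08 FPKM, and Slc2a1, a glucose transporter, from 73.4 ± 7.02 to 27.9 ± 2.02 FPKM (n = 3 each). Egln3, an oxygen-sensing hydroxylase, rose from 16.2 ± 0.889 to 35.4 ± 10.5 FPKM, and P4ha1, a collagen prolyl hydroxylase subunit, from 4.85 ± 1.02 to 8.54 ± 1.09 FPKM. Against HFD, in the group with the bacterium Ndrg1 rose to 35.5 ± 4.65 and Slc2a1 to 45.6 ± 5.9 FPKM, Egln3 fell to 12.6 ± 2.43 FPKM, and Pdk1, a kinase that inhibits pyruvate dehydrogenase, fell from 11.8 ± 0.41 to 6.82 ± 0.473 FPKM.

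Car14, a transmembrane enzyme, was near the lower end of measurement and passed the filter with 4 libraries at 0.5 FPKM or more. These were the 3 control libraries and replicate 1 of HFD with the bacterium, so Car14 entered the test through libraries where it was higher. It had 1.76, 0.674 and 0.649 FPKM in control replicates 1, 2 and 3, 0.21, 0.241 and 0.359 FPKM in HFD replicates 1, 2 and 4, and 0.844, 0.189 and 0.403 FPKM in HFD with the bacterium. These rest on 8 to 76 fragments per library; HFD replicate 1, with 10 fragments, has a 95% counting interval of 0.101 to 0.386 FPKM (exact Poisson, counting error only). The HFD libraries were below all control libraries, a separation that the filter favours. HFD minus control was -0.63 (SE 0.23, limma adjusted p = 0.091), which did not pass.

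Car3, a low-activity cytosolic enzyme typical of fat and skeletal muscle, had 21.1, 420 and 75.1 FPKM in control replicates 1, 2 and 3, 70.5, 2.49 and 1.61 FPKM in HFD replicates 1, 2 and 4, and 36, 158 and 178 FPKM in HFD with the bacterium. The groups overlapped in all 3 comparisons. For HFD minus control the difference was -3.36 (SE 1.42, limma adjusted p = 0.13) and HFD with the bacterium minus HFD was 3.55 (SE 1.42, adjusted p = 0.15). Without HFD replicate 1 both passed, at -4.88 (adjusted p = 0.037) and 5.07 (adjusted p = 0.045). The summed level of 9 adipocyte genes moved with it. That sum was 74.3, 1204 and 245 FPKM in control, 120, 15.8 and 11.5 FPKM in HFD, then 101, 303 and 351 FPKM in HFD with the bacterium, in the same replicate order. It ranked the 9 libraries exactly as Car3 did. Of the adipocyte genes, 1 of 9 was called lower in HFD and none in the other comparisons. Skeletal muscle genes were low, with a sum over 8 genes of 5.54 to 35.7 FPKM and Myh4 and Pvalb at 0 in every library. Of the 3 tested, Ckm, the muscle creatine kinase, was lower in HFD at 1.61 ± 0.4 against 7.71 ± 4.83 FPKM in control (difference -1.61, limma adjusted p = 0.014). It stood at 5.05 ± 1.68 FPKM in HFD with the bacterium. Acta1 and Mylpf did not pass. The myosins Myh1 and Myh2, below the filter, went the other way, with Myh2 at 0.447 ± 0.34 FPKM in HFD against 0.0562 ± 0.0555 in control. Ckm did not follow Car3 by library: control replicate 1 was highest for Ckm, at 13.2 FPKM, and the lowest control library for Car3.

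Car5b, the mitochondrial enzyme, had 0.379, 5.2 and 0.884 FPKM in control replicates 1, 2 and 3, 0.99, 0.491 and 0.234 FPKM in HFD replicates 1, 2 and 4, and 0.631, 1.48 and 1.62 FPKM in HFD with the bacterium, on 26 to 501 fragments. The 3 libraries highest in Car5b were the 3 highest in Car3 and in the adipocyte sum, in the same order. As HFD minus control it differed by -0.71 (SE 0.50, limma adjusted p = 0.35) and HFD with the bacterium minus HFD was 0.51 (adjusted p = 0.56). The part of fat in the pieces in either gene's values was not tested further.

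**Figure D3:**
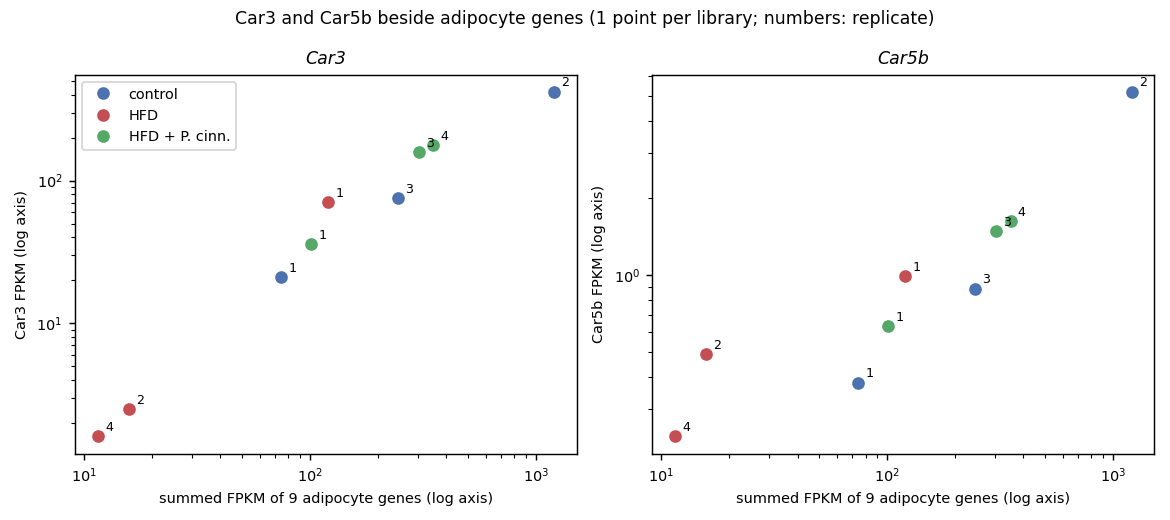
Car3 (left) and Car5b (right) in FPKM against the summed FPKM of 9 adipocyte genes, both on log axes, with 1 point per library numbered by replicate. Control replicate 2 is highest on all axes and HFD replicate 4 lowest, and the colours of the groups are mixed between them.

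Read against the background, 4 of 10 members (Car1, Car8, Car12 and Car14) had HFD and control values without overlap, where 42.1% of all tested genes did. Of these, Car14 passed the filter without any HFD library. Comparing HFD with the bacterium to HFD it was 6 of 10, where 39% of all tested genes did, and for HFD with the bacterium against control 1 of 10 (Car8), where 21.7% did. The share of the first comparison is near the background. None of the shares was tested against it, and 10 genes are few for such a share. The median difference of the members was -0.67, 0.61 and -0.15 in the 3 comparisons, against -0.00, -0.01 and -0.01 over all tested genes. Without control replicate 1, 4 members were called lower in HFD than control, where 13.5% of tested genes were. In that setting 4 members were higher and 2 lower in HFD with the bacterium than in HFD, where 9.41% and 11% of tested genes were.

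The make-up of the family changed with Car1. Car1 gave 41.4%, 91.7% and 95.7% of the summed FPKM of the 10 genes in control replicates 1, 2 and 3, 8.62%, 6.81% and 12.2% in HFD replicates 1, 2 and 4, and 93.9%, 91.5% and 93.5% in HFD with the bacterium. In HFD, Car4 gave 42.6% to 48.4% and Car2 33.3% to 41.9%. The summed level was 11898 ± 9500, 950 ± 120 and 9885 ± 1276 FPKM (SD, n = 3 each), and without Car1 it was 967 ± 190, 861 ± 102 and 685 ± 27.5 FPKM. For the Car1 share, the exact two-sided permutation test gave p = 0.1 for HFD against control and for HFD with the bacterium against HFD, the smallest p that 3 against 3 libraries allow. Ranked by mean level, HFD ran Car4, Car2, Car1, Car3, Car9, Car13, Car12, Car8, Car5b and Car14. Ranges of neighbours were separate in HFD only between Car2 and Car1, Car9 and Car13, and Car13 and Car12. In HFD with the bacterium the order was Car1, Car4, Car2, Car3, Car9, Car8, Car13, Car12, Car5b and Car14, with Car1 clear of Car4. Neighbours overlapped there for Car4 and Car2, Car9 and Car8, Car13 and Car12, and Car5b and Car14. The order by mean was the same in control, where all neighbours but Car9 and Car8 overlapped.

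**Figure D4:**
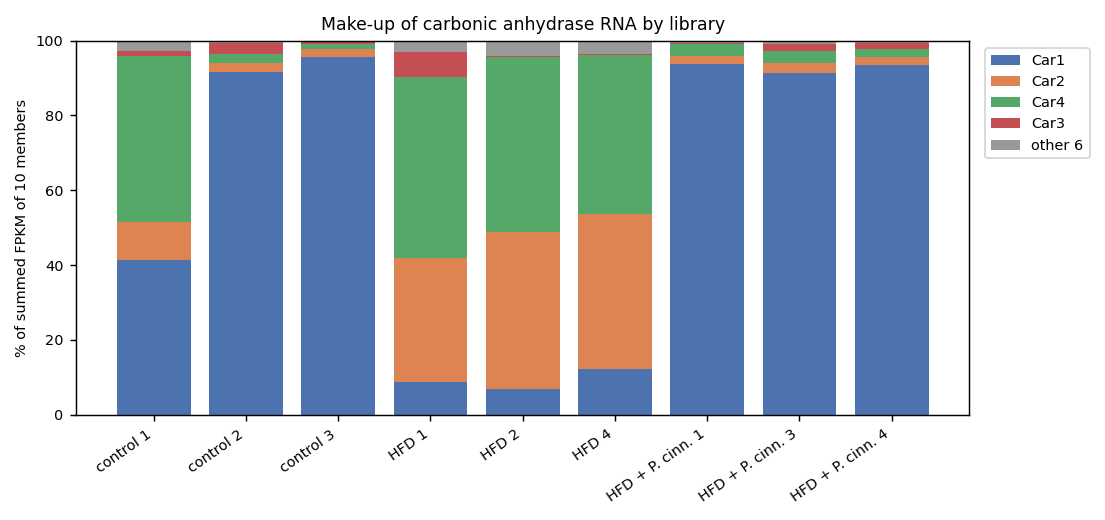
Share of the summed FPKM of the 10 carbonic anhydrases in each library, in percent, by gene; the other 6 genes are pooled in grey. Car1 takes 91.5% or more in 5 of the 6 libraries outside HFD, 41.4% in control replicate 1, and at most 12.2% in HFD.

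The genes whose profiles lay nearest to a member were found by the root mean square difference of centred log2 values over the 9 libraries, among 12310 genes. For Car1 they were Slc51a (0.53), a bile acid transporter subunit, Cyp2c65 (0.54) and Sptssb (0.73). For Car8 they were Ncoa7 (0.35), Dpep1 (0.38) and Guca2a (0.39), the hormone guanylin. For Car12 they were Hoxb7 (0.22), Hsd3b3 (0.23) and Abca12 (0.27), and Hoxb7 had 3.31 FPKM in control replicate 1 against 16.6 and 22.3 in replicates 2 and 3, 0.666 to 1.07 in HFD and 10.1 to 13 in HFD with the bacterium. For Car3 they were the adipocyte genes Adipoq (0.37), Cfd (0.40) and Cidec (0.72). Nearest to Car13 were Adk (0.14), Rnf128 and Cpt2, to Car2 Tax1bp3 (0.16), Chdh and Serpinb1a, and to Car4 Slc25a12 (0.21), Slc7a8 and Msantd3. Nearest to Car5b were Slc36a2 (0.20), Serpina3c and Acsl1, to Car9 E2f3 (0.08), Hif1an and Smim4, and to Car14 Cadm4 (0.10), Snhg20 and Pcbp4. The measure depends on the spread of the member's own profile, so it cannot be compared between members. The SD of that profile was 3.29 for Car1, 2.36 for Car3, 1.62 for Car8 and 1.36 for Car12. It was 0.47 for Car2 and for Car4, and 0.25 for Car9. For Car5b and Car14, and for Car8 and Car12 in HFD, adding 1 to levels near or below 1 FPKM shrinks the profile and with it this measure.

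**Figure D5:**
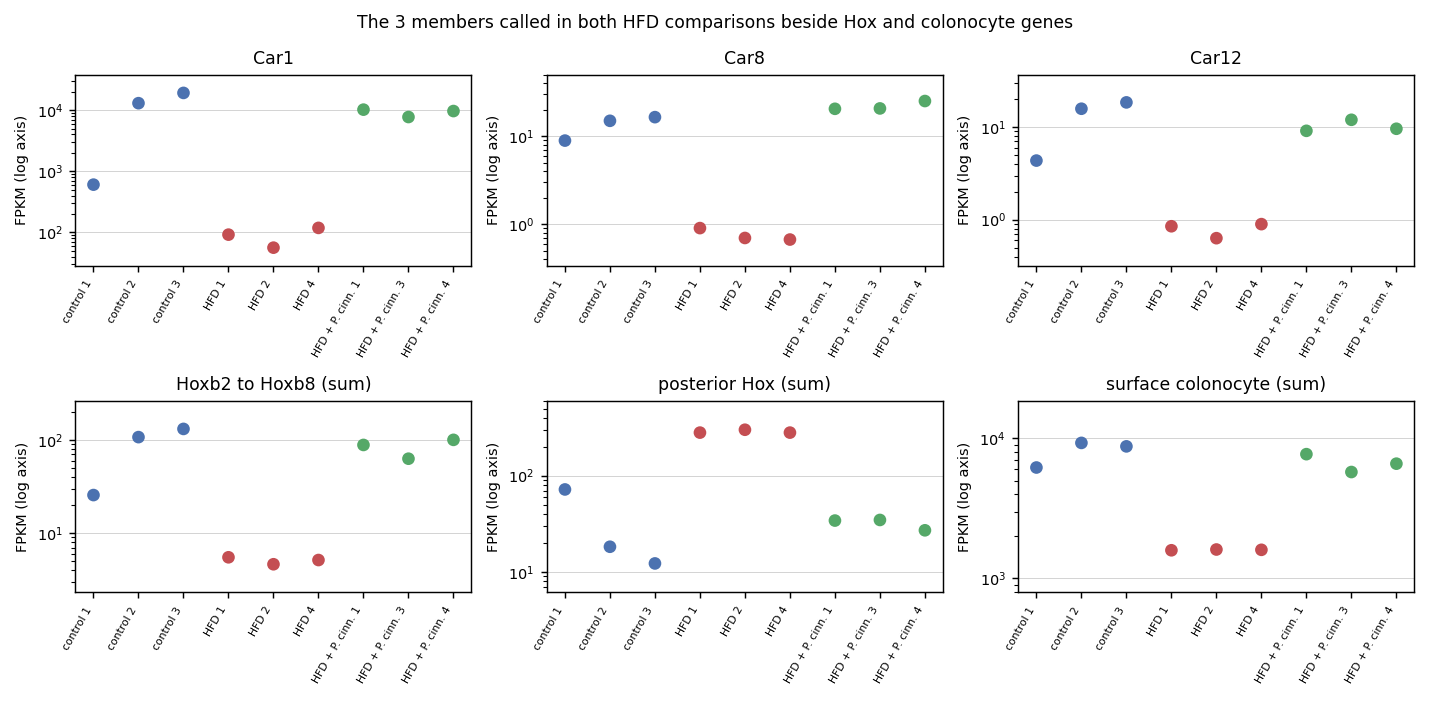
FPKM (log axes) in the 9 libraries of Car1, Car8 and Car12 (top) and of the summed Hoxb2 to Hoxb8, posterior Hox and surface colonocyte genes (bottom). The HFD libraries are lowest for all but the posterior Hox genes, where they are highest at 281 to 301 FPKM. Control replicate 1 lies between HFD and the other 5 libraries for Car1, Car8, Car12 and both Hox sums.

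Genes of colonocytes and of acid and base transport were read beside the enzymes. Of 10 surface colonocyte genes 6 were lower and 1 higher in HFD than control (median -2.38), and 6 were higher and 1 lower when HFD with the bacterium was compared with HFD (median 1.49). In HFD, Tmigd1, a membrane adhesion protein, fell from 309 ± 165 to 1.71 ± 0.689 FPKM, Cyp2c55, a cytochrome P450, from 1396 ± 891 to 22.3 ± 10.4, and Guca2a from 3921 ± 809 to 304 ± 48 (n = 3 each). Slc37a2, a sugar phosphate transporter, rose from 3.88 ± 2.9 to 55.2 ± 13.1 FPKM. Comparing HFD with the bacterium to HFD, Tmigd1 rose to 399 ± 119, Cyp2c55 to 1092 ± 137 and Guca2a to 3943 ± 642 FPKM, and Slc37a2 fell to 0.586 ± 0.208 FPKM. Of 10 pan-epithelial genes 2 were lower in HFD than control and none higher (median -0.39). Of these 2, the epithelial factor Cdx2 fell from 112 ± 34.8 to 8.1 ± 1.4 FPKM. In HFD with the bacterium Cdx2 stood at 68.8 ± 13.3 FPKM.

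Of 16 bicarbonate, proton and carboxylate transporters tested, 3 were higher and 5 lower in HFD than control (median -0.20). Atp12a, the colonic proton pump, rose from 1.48 ± 2.13 to 84.5 ± 6.04 FPKM (difference 5.44, limma adjusted p = 0.00024), and Best2, a bicarbonate-permeable channel, from 1.22 ± 0.554 to 18.7 ± 0.877 FPKM. Slc9a3, the apical sodium-proton exchanger, fell from 49.6 ± 24.3 to 4.69 ± 2.21 FPKM (difference -3.11, adjusted p = 0.0012), and Slc9a2, another exchanger of that kind, fell from 79.1 ± 25.1 to 24.6 ± 2.38 FPKM. When HFD with the bacterium was compared with HFD, 3 were higher and 4 lower (median -0.09). Slc9a3 reached 41.4 ± 13.2 FPKM (difference 2.92, adjusted p = 0.002), Atp12a fell to 0.696 ± 0.549 FPKM and Best2 to 0.521 ± 0.174 FPKM, and Slc26a3, the apical chloride-bicarbonate exchanger, fell from 97.3 ± 15.8 to 33.3 ± 16.1 FPKM (adjusted p = 0.027). Slc26a3 did not pass between HFD and control, at 97.3 and 73.3 FPKM. Between HFD with the bacterium and control 1 was called, Slc16a3, a carboxylate transporter, lower at 1.28 ± 0.276 against 3.27 ± 0.452 FPKM (adjusted p = 0.037). No gene at all was called in that comparison with the replicate block, with voom, or without control replicate 2, control replicate 3, HFD replicate 1, or replicate 1 or 4 of HFD with the bacterium.

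Of the 6 other carbonic anhydrase genes found, 2 were tested, Car7 and Car11. Car11, another inactive member, was lower in HFD at 0.545 ± 0.188 against 2.71 ± 1.75 FPKM in control (difference -1.16, limma adjusted p = 0.026). Car7, a cytosolic enzyme, had 0.528 ± 0.127 and 0.318 ± 0.159 FPKM and did not pass. Car5a, Car6, Car10 and Car15 did not reach the filter.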

How the data were processed

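Colon RNA was sequenced in 9 libraries of 3 groups; groups came from the treatment labels and replicate numbers from the titles. The authors deposited FPKM values per gene. The submitters' processing notes name the aligner HISAT2 2.0.5 and the build GRCm39; for counting tool and annotation, names were not given in the sources used here, and reads of near-identical genes may be split. Symbols were found for 52093 of 54491 identifiers.

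FPKM values were tested as log2(FPKM + 1) with limma 3.58.1 in R 4.3.3, with a variance trend, all 9 libraries in 1 fit and no covariate. Genes at or above 0.5 FPKM in 3 or more libraries (17907) entered the test, with Benjamini-Hochberg adjustment over all of them in each comparison, and a call was an adjusted p below 0.05. A fold on this scale understates changes of low genes. The test was planned for this unit.

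FPKM ratios between libraries gave whole fragments, up to a common factor per gene, for all 32181 genes above 0 (largest gap 0.000673, tolerance 0.002), 14848249 to 17350899 per library. Precision of low values follows from these numbers and covers counting error only. Fits and the recovery were tested on simulated data. Alternatives were 18 planned settings and 1 chosen after seeing the data (limma with voom weights on the recovered fragments). Tables were made with Python 3.11.15, numpy 2.4.6, pandas 2.3.3 and scipy 1.17.1.

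The members and gene lists were chosen with earlier results of these data known. Named genes were all members, up to 4 called genes per list and comparison by size of the difference (or the 2 most abundant where none was called), and the 3 nearest profiles per member among genes of 1 FPKM or more on average.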

Additional observations from a re-analysis of the deposited data

How the results depend on the processing

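Car1, Car8 and Car12 kept their direction and passed in all 19 alternatives for HFD against control and for HFD with the bacterium against HFD; the highest adjusted p for Car1 was 0.046 and 0.041, both with the replicate block (limma). The numbers of genes called were 3535 for HFD against control, 2174 for HFD with the bacterium against HFD and 198 for HFD with the bacterium against control. The first became 8026 scaled to the pan-epithelial list and 1985 with the replicate block, and 1612 to 4527 when a library was left out. The second became 3316 with only the 2 groups compared and 1288 with the block, and 991 to 3603 when a library was left out. The third was 15 without a filter, 46 with quantile normalization, 6 with TPM scaling, 382 without mitochondrial and immunoglobulin genes, 1146 scaled to pan-epithelial genes, 10 with only 2 groups, 0 with the replicate block, 0 with voom, and 0 to 1187 when a library was left out, the highest without control replicate 1. Called members rose from 0 to 2 (Car2 and Car9, higher in HFD) scaled to pan-epithelial genes, where 42.1% of tested genes were higher. The same scaling called 1 lower in HFD with the bacterium than in HFD (Car2), where 10.4% of tested genes were. It called 1 higher than in control (Car8), where 6.12% were. Without mitochondrial and immunoglobulin genes Car8 was also higher than in control, where 1.66% were. With only 2 groups compared 1 was called lower in HFD with the bacterium than in HFD, where 10.5% were. Leaving out a library gave 0 to 2 called lower against HFD and 0 to 2 against control. Both highest counts came without control replicate 1, where 11% and 4.91% of tested genes were lower.

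The median of all genes moved by 0.24 with TPM scaling, 0.169 without mitochondrial and immunoglobulin genes, 0.22 with voom and 0.49 scaled to pan-epithelial genes in HFD against control. The share of calls that were higher, 53.8%, became 78.2%, 76.8%, 75.5% and 93.9%. For HFD with the bacterium against HFD, 37.4% became 25.3% with TPM scaling and 22.9% scaled to pan-epithelial genes, with medians of -0.2 and -0.179. For HFD with the bacterium against control, 23.7% became 77% without mitochondrial and immunoglobulin genes (median 0.136) and 95.6% scaled to pan-epithelial genes (median 0.305). The pan-epithelial list holds Cdx2 and Vil1, which fell in HFD.

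Signs turned only for differences that had not passed. In HFD against control, Car9 was 0.09 with TPM scaling, 0.06 without mitochondrial and immunoglobulin genes, 0.49 scaled to pan-epithelial genes and 0.03 with voom, and Car13 was 0.14 scaled to pan-epithelial genes. In HFD with the bacterium against HFD, Car9 was 0.04 with quantile normalization. In HFD with the bacterium against control, Car12 was 0.10 and Car9 0.03 without mitochondrial and immunoglobulin genes. Scaled to pan-epithelial genes, Car2 was 0.17, Car12 0.33, Car9 0.27 and Car5b 0.08. Car12 was 0.01 and Car5b 0.05 with voom, and Car5b was 0.06 with the replicate block. When a library was left out, HFD against control ran from -0.03 to 0.70 for Car2, -0.13 to 0.45 for Car4 and -0.36 to 0.06 for Car9, and Car9 ran from -0.12 to 0.11 in HFD with the bacterium against HFD. In HFD with the bacterium against control the ranges were -0.79 to 1.70 for Car1, -0.81 to 1.31 for Car3, -0.25 to 0.47 for Car13, -0.70 to 0.24 for Car12, -0.64 to 0.45 for Car5b and -0.37 to 0.05 for Car9.

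Replicate numbers are shared by 2 libraries in each pair of groups, and same-numbered libraries deviated with correlations from -0.156 to 0.187, so the numbers were not taken as pairing. With the replicate block, 3 members were still called lower in HFD than control, where 4.8% of tested genes were. The same block called 3 higher in HFD with the bacterium than in HFD, where 2.67% were. Depth limits mainly Car14 and Car5b. The cause of the changes above was not tested.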
